A study of Mus musculus with 19 samples.

Results

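The genes described here are 9 cytosolic sensors of RNA and DNA and their direct signalling partners, chosen by name as a family, out of 56980 genes in the count table. All 9 were found by their symbol: Rigi, Ifih1 and Dhx58 (the RIG-I-like receptors), Mavs (their adaptor), Zbp1, Eif2ak2 and Adar (effectors that bind unusual RNA), and Cgas and Sting1 (the DNA sensor and its partner). All 9 passed the filter on low counts, which kept 18739 genes. The study asked how loss of PARK7/DJ-1, a small redox-sensitive protein, alters microglia under systemic inflammation. RNA was sequenced from CD11b+ cells, which are microglia and other myeloid cells taken with magnetic beads from brain without its olfactory bulb and cerebellum, in 19 male mice of 3 to 4 months. The groups were wildtype mice given PBS (n = 4), wildtype mice given LPS (n = 5), PARK7/DJ-1 KO mice given PBS (n = 5) and PARK7/DJ-1 KO mice given LPS (n = 5). LPS, a bacterial cell wall lipid that activates Toll-like receptor 4, was injected intraperitoneally at 4 μg/g body weight 6 h before the mice were killed. PBS is the saline vehicle. The KO mice carried a gene-trap allele of Park7 in every cell of the body, on a C57BL/6NCrl background, and the wildtype mice were their littermates. Each library was made from 1 mouse.

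RIG-I, the product of Rigi, and MDA5, the product of Ifih1, are helicases that bind viral or misplaced cellular RNA in the cytosol and pass the signal to MAVS on mitochondria. cGAS binds DNA in the cytosol and makes a cyclic dinucleotide that activates STING on the endoplasmic reticulum. Both routes lead to the kinase TBK1, to interferon regulatory factors and to type I interferon, which in turn raises the transcription of many of the sensors. Microglia, the resident macrophages of the brain, are known to express the STING route strongly.

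In these libraries 7 of the 9 genes rose after LPS in both genotypes, where 18.4% of all genes rose in wildtype and 20.1% in KO mice, and Zbp1 rose most. Neither Mavs nor Sting1 rose. Sting1, the most abundant of the family per exon length, fell in wildtype mice. No gene of the family passed the threshold for a difference between PARK7/DJ-1 KO and wildtype mice, a threshold that 1.31% of all genes passed after LPS and 0.8% with PBS, so a count of 0 among 9 genes does not set the family apart. Since the cells were measured in bulk, fewer cells of a type and less RNA per cell cannot be told apart.

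Library depth ran from 11936364 to 22788884 counts. At these depths 3 counts, taken as the smallest signal a library can show, correspond to 0.139 to 0.256 CPM (counts scaled to the library total after TMM normalization). Such limits cover counting error only, since reads are not independent molecules. Park7 lay between 0.457 and 5.38 CPM in the KO libraries and between 20.6 and 32.1 CPM in the wildtype libraries, so the genotype labels matched. Microglial markers were present in every library, with a summed level of 27189 to 42769 CPM in wildtype mice given PBS and 12412 to 19356 CPM in wildtype mice given LPS. Of 12 such markers 10 were lower after LPS in each genotype, while 6 of 6 monocyte markers were higher in each, at a summed 38.2 to 55.4 CPM against 294 to 526 CPM in wildtype mice and 29.5 to 69.7 CPM against 183 to 493 CPM in KO mice. Neutrophil markers were also higher after LPS (4 of 8 in wildtype, 5 of 8 in KO). Their summed level went from 52.5 to 97.6 CPM to 160 to 453 CPM in wildtype mice, and from 20.9 to 185 CPM to 100.001 to 447 CPM in KO mice. Border-associated macrophage (4 of 7), B cell (2 of 2 tested) and endothelial markers (3 of 6) were called lower after LPS in both genotypes, and 1 endothelial marker was called higher in KO mice. Of the astrocyte and neuron markers, 1 of 6 each was called higher in both genotypes. For the markers of microglia and other immune cells, the part of these changes in the results below was not tested. Summed markers of other brain cells (oligodendrocytes, astrocytes, neurons and endothelial cells) entered an alternative fit for the family, given at the end. KO LPS libraries 1 and 5 lay farthest apart on the first principal component of the LPS libraries. Of the KO LPS libraries they held the highest and the lowest summed markers of other brain cells (16773 and 2022 CPM), and values of KO mice after LPS that move without them are given beside the results or with the alternatives.

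The promoter windows of RefSeq (build GRCm38.p6) ran from 250 bases before to 50 bases after the annotated start. They were searched for 6 genes of the family. In 4 of these 6 genes a window held the core of the interferon-stimulated response element. This motif was searched as GAAANNGAA on both strands, and 8.56% of all 32851 windows held it. For this and the other motifs a gene was counted if any of its windows matched, and the 6 genes had 8 windows. The shares are per window, so they are not the same measure as the counts of genes. The sites are printed to show what these windows hold, in 4 of the 5 genes with a window that rose after LPS (Cgas, the other one, held no match). Each is given 5′ to 3′ on the strand of its gene with the match in capitals, and their positions are those of an exact match on GRCm39.
Ifih1, starting 112 bases before the start, on the reverse strand (chr2:62476692-62476721): agaattcgcgTTCCCTTTCctgtttctcac
Ifih1, at base 33 of the transcript (chr2:62476550-62476579): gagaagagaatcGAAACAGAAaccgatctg
Rigi, at base 4 of the transcript, on the reverse strand (chr4:40239803-40239832): ctgaggcagtTTCGATTTCctatggccagc
Eif2ak2, at base 19 of the transcript (chr17:79189964-79189993): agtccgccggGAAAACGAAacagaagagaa
Eif2ak2, at base 25 of the transcript (chr17:79189958-79189987): ccgggaaaacGAAACAGAAgagaaccggcc
Adar, starting 249 bases before the start of the third of its 3 windows (chr3:89637775-89637804): gGAAAAGGAActtcctcacagggcggagag
Adar, at base 34 of the transcript that starts in the same window (chr3:89638045-89638074): ttttcaaggaaacGAAAGTGAActctgggg
The 2 matches in Eif2ak2 overlap each other. The other 2 windows of Adar and those of Cgas and Mavs held no match. The gamma-activated site, searched as TTCNNNGAA, was found in 8.3% of all windows and in 2 of the 6 genes. In Eif2ak2 it began 178 bases before the start, and in the third window of Adar at base 23, next to the response element without overlapping it. The kappaB consensus was found in 4.51% of all windows and in none of the 6 genes. A match is a description of the letters, not evidence of binding. Dhx58 and Zbp1 had no window. Sting1 was left out of the search, so nothing can be said of its promoter.

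The RIG-I-like receptors rose together. Rigi (GRCm39 chr4:40203772-40239852, minus strand) detects short RNA with a triphosphate end. In wildtype mice it measured 58.6, 43.0, 58.0 and 55.1 CPM with PBS and 162, 141, 151, 212 and 209 CPM with LPS. In KO mice the values were 60.5, 53.3, 50.04, 49.4 and 48.5 CPM with PBS and 153, 147, 247, 199 and 140.2 CPM with LPS. Every LPS library lay above every PBS library in both genotypes, and libraries 4 and 5 of the wildtype and 3 and 4 of the KO mice were highest. The log2 fold change (log2FC) was 1.70 (SE 0.17) in wildtype and 1.76 (SE 0.16) in KO mice, with adjusted p = 2.76e-07 and 5.22e-08 in edgeR's quasi-likelihood test.

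Ifih1 (chr2:62425714-62476607, minus strand) encodes MDA5, which binds long double-stranded RNA. In wildtype mice it measured 48.0, 43.0, 49.0 and 43.0 CPM with PBS and 189, 160.3, 195, 357 and 344 CPM with LPS. KO mice had 50.1, 55.2, 45.0, 42.5 and 42.8 CPM with PBS and 169, 195, 368, 248 and 213 CPM with LPS. The PBS libraries were close to each other, whereas the LPS libraries spread widely, with wildtype libraries 4 and 5 and KO library 3 far above the rest. Again no LPS library overlapped the PBS range. Ifih1 rose by a log2FC of 2.44 (SE 0.25, 5.44-fold) in wildtype and 2.34 (SE 0.23, 5.06-fold) in KO mice, with adjusted p = 3.06e-07 and 1.31e-07 in edgeR.

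Dhx58 (chr11:100585710-100595097, minus strand) encodes LGP2, a receptor without a signalling domain that tunes the other receptors. It ranged from 12.6 to 20.4 CPM in wildtype and from 13.7 to 16.6 CPM in KO mice given PBS. After LPS it ranged from 43.2 to 86.3 CPM in wildtype and from 35.8 to 97.4 CPM in KO mice, without overlap. The log2FC was 1.95 (SE 0.26) and 1.88 (SE 0.24), with adjusted p = 7.74e-06 and 3.57e-06 in edgeR. Genes annotated on the opposite strand overlap Dhx58, Eif2ak2, Adar, Cgas and Mavs. The library kit keeps the strand, but the strand setting of the counting is not given in the sources used here, so reads of those genes could be included.

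Mavs (chr2:131075442-131096740, plus strand) is the adaptor on which RIG-I and MDA5 converge. It measured 62.5, 53.3, 55.4 and 47.1 CPM in wildtype mice given PBS and 66.5, 61.6, 66.2, 32.9 and 37.0 CPM after LPS. In KO mice it measured 58.6, 61.1, 54.6, 51.5 and 47.2 CPM with PBS and 52.7, 57.4, 19.4, 46.8 and 54.8 CPM with LPS. The groups overlapped in both genotypes, and the low values came from wildtype LPS libraries 4 and 5 and KO LPS library 3. The log2FC was -0.05 (95% interval -0.57 to 0.48) in wildtype and -0.24 (-0.74 to 0.26) in KO mice, with adjusted p = 0.91 and 0.446 in edgeR. Changes within these intervals are compatible with the data. Without KO LPS library 3 the KO value was -0.04, with adjusted p = 0.874 in edgeR, and without KO LPS libraries 1 and 5 it was -0.40, with adjusted p = 0.276 in edgeR.

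**Figure D1:**
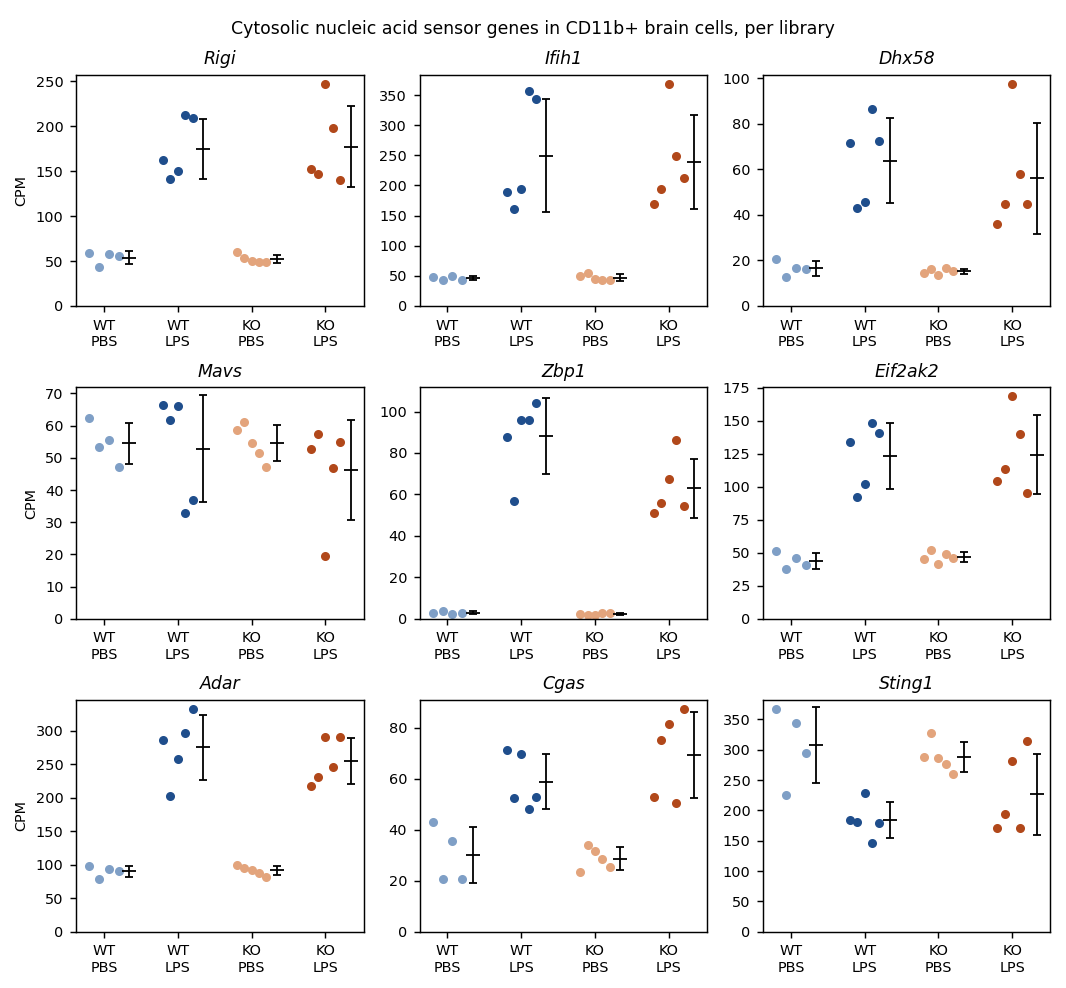
Level of each of the 9 genes in CPM (linear axis from 0) in every library. Each point is 1 mouse, ordered by library number within its group, and bars give the mean and SD. In 7 panels every LPS library lies above every PBS library, while Mavs and Sting1 overlap.

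The effectors that bind unusual RNA rose as well. Zbp1 (chr2:173033815-173060724, minus strand) recognises the left-handed Z form of RNA and DNA and engages the kinase RIPK3, which can trigger necroptosis. With PBS it was barely present, at 2.97, 3.88, 2.50 and 2.61 CPM in wildtype and 2.21, 1.94, 1.98, 2.62 and 2.92 CPM in KO mice. After LPS it measured 87.8, 57.0, 95.8, 96.0 and 104 CPM in wildtype and 51.0, 55.8, 67.6, 86.1 and 54.4 CPM in KO mice. Every LPS library exceeded every PBS library by a wide margin. The change was a log2FC of 4.88 (SE 0.23, 29.4-fold) in wildtype and 4.75 (SE 0.21, 26.9-fold) in KO mice, with adjusted p = 7.08e-11 and 1.94e-11 in edgeR.

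Eif2ak2 (chr17:79159972-79190012, minus strand) encodes PKR, a kinase that binds double-stranded RNA and halts translation by phosphorylating the initiation factor eIF2α. It ranged from 37.4 to 51.0 CPM in wildtype and from 41.5 to 51.9 CPM in KO mice given PBS, and from 91.9 to 148 CPM and from 95.2 to 169 CPM after LPS. Its log2FC was 1.49 (SE 0.17) in wildtype and 1.41 (SE 0.16) in KO mice, with adjusted p = 1.2e-06 and 6.8e-07 in edgeR. Adar (chr3:89622329-89660753, plus strand) encodes ADAR1, which converts adenosine to inosine in paired RNA and so keeps cellular RNA from being taken for viral RNA. It ranged from 78.2 to 98.1 CPM in wildtype and from 82.2 to 99.6 CPM in KO mice given PBS, and from 202 to 333 CPM and from 218 to 290.4 CPM after LPS. The log2FC was 1.61 (SE 0.13) and 1.48 (SE 0.12), with adjusted p = 2.49e-08 and 1.59e-08 in edgeR. For both genes the LPS and PBS libraries did not overlap.

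The DNA sensor and its partner diverged. Cgas (chr9:78337802-78350535, minus strand) encodes the enzyme that detects DNA in the cytosol. In wildtype mice it measured 43.2, 20.9, 35.5 and 20.8 CPM with PBS and 71.5, 52.6, 69.6, 48.2 and 52.8 CPM with LPS. In KO mice it measured 23.4, 34.2, 31.8, 28.4 and 25.4 CPM with PBS and 52.7, 75.1, 81.4, 50.6 and 87.4 CPM with LPS. The LPS libraries were all above the PBS libraries, but the margin was the smallest of the 7 genes that rose. The log2FC was 0.97 (SE 0.23, 1.96-fold) in wildtype and 1.28 (SE 0.21, 2.42-fold) in KO mice, with adjusted p = 0.00177 and 5.87e-05 in edgeR.

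Sting1 encodes the receptor of the cyclic dinucleotide that cGAS makes. In wildtype mice it measured 367, 226, 344 and 295 CPM with PBS and 185, 181, 228, 146 and 179 CPM with LPS. In KO mice it measured 288, 327, 286, 277 and 259.8 CPM with PBS and 172, 194, 281, 172 and 315 CPM with LPS. In wildtype mice the groups touched only where PBS library 2 (226 CPM) met LPS library 3 (228 CPM). In KO mice LPS libraries 3 and 5 lay within the PBS range and the other 3 below it. Sting1 decreased by a log2FC of -0.75 (SE 0.18) in wildtype mice, with adjusted p = 0.00273 in edgeR. In KO mice the log2FC was -0.34 (95% interval -0.71 to 0.02), with adjusted p = 0.117 in edgeR. Without KO LPS library 5 it was -0.49 with adjusted p = 0.0218 in edgeR, still under the fold threshold, and without KO LPS libraries 1 and 5 it was -0.41 with adjusted p = 0.074 in edgeR. It was smaller without KO LPS library 1 or 4, at -0.24 each, with adjusted p = 0.282 and 0.295 in edgeR. The difference between genotypes in the response of Sting1 was an interaction of 0.40 (95% interval -0.13 to 0.93), with adjusted p = 1 in edgeR. With each library left out it ran from 0.25 (without KO LPS library 5) to 0.52 (without wildtype PBS library 2). Summed microglial markers were lower in every LPS library than in any PBS library of the same genotype. In KO mice they ran from 12602 to 19650 CPM after LPS against 28742 to 43997 CPM with PBS, so they were also lower in KO LPS libraries 3 and 5. The part of these markers in the change of Sting1 was not tested.

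Counted over the family, 7 genes were called higher and 1 lower after LPS in wildtype mice, at an adjusted p under 0.05 and a |log2FC| of at least 0.5 in edgeR. The same rule called 18.4% of all tested genes higher and 17.4% lower. In KO mice 7 were called higher and 0 lower, against 20.1% higher and 19% lower among all genes, and DESeq2 likewise called 7. No further gene of the family had an unadjusted p under 0.05 in KO mice in either tool. Every LPS library lay above every PBS library for 7 of the 9 genes in each genotype, against 20.8% of all genes in wildtype and 16.2% in KO mice. The family's median change was 1.61 in wildtype and 1.48 in KO mice on the log2 scale, against -0.06 and -0.01 over all genes. As a check without a model, log2 CPM was permuted over all splits of the mice, and this exact two-sided test gave the smallest possible p of 0.00794 for each of these 7 genes in each genotype. For Sting1 the exact p was 0.0159 in wildtype and 0.111 in KO mice. After Benjamini-Hochberg adjustment over 36 such tests, 15 stayed under 0.05, which are the 7 genes in both genotypes and Sting1 in wildtype mice (adjusted exact p = 0.0204 and 0.0382).

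**Figure D2:**
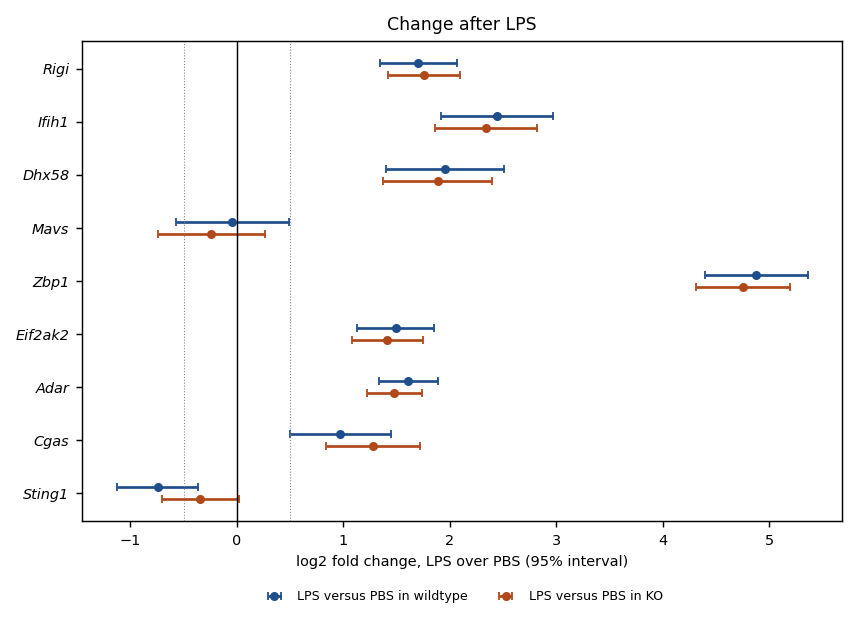
Log2 fold change of LPS over PBS for each gene in wildtype and KO mice from the edgeR fit, with 95% intervals. Dotted lines mark a log2FC of 0.5 in either direction. Zbp1 stands at 4.88 and 4.75, and the other 6 genes that rose lie between 0.97 and 2.44. Both intervals of Mavs and the interval of Sting1 in KO mice include 0.

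The order of levels within the family changed after LPS. Per kilobase of exon, which corrects for gene length, Sting1 was highest in every group, at a mean of 96.6 CPM per kb in wildtype and 90.2 in KO mice given PBS, and 57.6 and 71.1 after LPS. Adar was next in each group, at 11.1 and 11.3 CPM per kb with PBS and 33.9 and 31.4 after LPS. With PBS, Zbp1 was lowest at 0.70 and 0.54 CPM per kb, below the range of every other gene, and after LPS it stood at 20.5 and 14.7 CPM per kb, at rank 6 of 9 in wildtype and rank 7 of 9 in KO mice. The last place after LPS was held by Mavs, at 4.65 and 4.06 CPM per kb, with no overlap with the range of Cgas above it.

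Between these ends neighbouring genes mostly overlapped. In wildtype mice given PBS, Eif2ak2, Rigi, Cgas, Ifih1, Dhx58 and Mavs followed each other from 8.07 CPM per kb downwards with overlapping ranges at each step, and Adar lay just above this group. After LPS, each neighbouring pair from Adar down to Cgas overlapped in both genotypes. The ranges of Sting1 and Adar did not overlap in any group. Sting1 made up 67.1% ± 2.05 (SD, n = 4) of the summed level per kb of the 9 genes in wildtype mice given PBS and 26.9% ± 5.91 (SD, n = 5) after LPS. In KO mice its share was 65.9% ± 0.685 (SD, n = 5) and 31.9% ± 5.74 (SD, n = 5). These levels divide by all annotated exons. With the length of the canonical transcript alone, Sting1 kept rank 1 in every group and Zbp1 rank 9 with PBS, but after LPS Zbp1 moved to rank 4 in wildtype and 5 in KO mice, Rigi to rank 3 and 2, and Adar to rank 3 in KO mice. With PBS Mavs moved to rank 4, so the order of the middle genes depends on the length used.

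**Figure D3:**
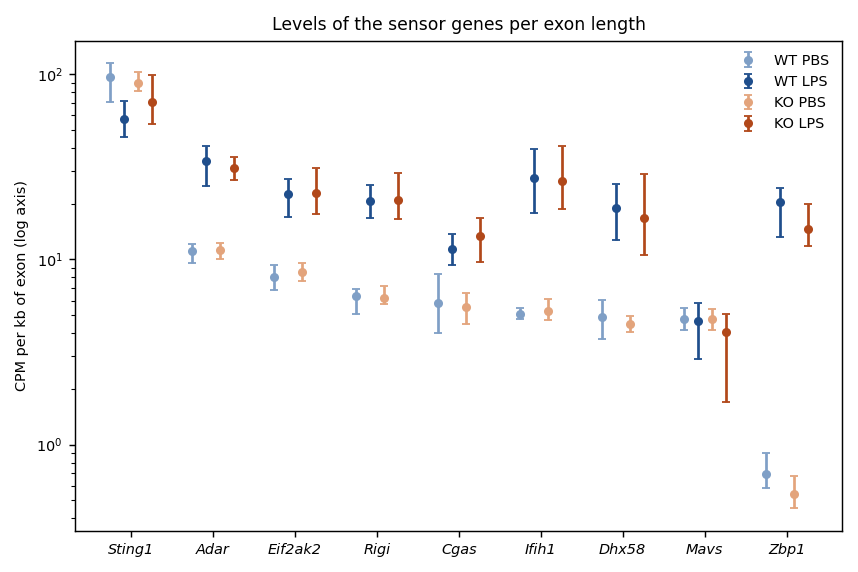
Mean CPM per kb of exon for each gene and group on a log axis, with bars from the lowest to the highest library (n = 4 for wildtype PBS, 5 for the others). Genes are ordered by their level in wildtype mice given PBS. Sting1 is highest throughout, and Zbp1 moves from rank 9 with PBS to rank 6 in wildtype and 7 in KO mice after LPS (4 and 5 by canonical transcript length).

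Among the 5 genes correlated within the LPS groups, 1 pair varied together by both measures used. Dhx58 and Eif2ak2 rose and fell together across the 10 LPS mice, with Pearson r = 0.915 (permutation p = 0.0005, adjusted 0.0075) and Spearman rho = 0.891 (permutation p = 0.00102, adjusted 0.0153). With KO library 3 and wildtype library 4 left out r was 0.839, and within genotypes, after removing each genotype's mean, it was 0.944. In all, 15 relations were computed, 10 between the 5 genes whose LPS libraries did not fall into separate ranges and 5 with the summed markers of other brain cells. This was the only one with both adjusted permutation p-values under 0.05. Eif2ak2 and Mavs ran in opposite directions, with r = -0.777 (permutation p = 0.00432, adjusted 0.0324) and rho = -0.733 (permutation p = 0.0208, adjusted 0.12), so this relation held by one measure and not by the other. Without KO library 3 and wildtype library 2 its r was -0.637, and within genotypes it was -0.794. Dhx58 and Mavs gave a like pair of values, with r = -0.755 (permutation p = 0.00784, adjusted 0.0392) and rho = -0.539 (permutation p = 0.113, adjusted 0.283). Its r was -0.851 within genotypes but -0.358 without KO library 3 and wildtype library 4, so this relation rests on those libraries.

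Rigi, Ifih1, Zbp1 and Cgas fell into separate ranges in the LPS libraries, so no pooled correlation is given for them. The 3 libraries with the highest Ifih1 (wildtype 4 and 5, KO 3) were also the 3 with the lowest Mavs. KO library 5 had the highest Cgas and Sting1 (87.4 and 315 CPM), KO library 3 was next in both (81.4 and 281 CPM), and wildtype library 4 was lowest in both (48.2 and 146 CPM). Library depth of wildtype 4 and 5 and KO 3 was 15704311, 11936364 and 18054167 counts, that of wildtype 5 being the lowest of all libraries. Their share of mitochondrial counts was 0.211%, 0.337% and 0.425%, within the range of 0.209% to 0.512% of the LPS libraries. Their summed markers of other brain cells were 4032, 2835 and 6692 CPM, within the 1272 to 16773 CPM of the LPS libraries.

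**Figure D4:**
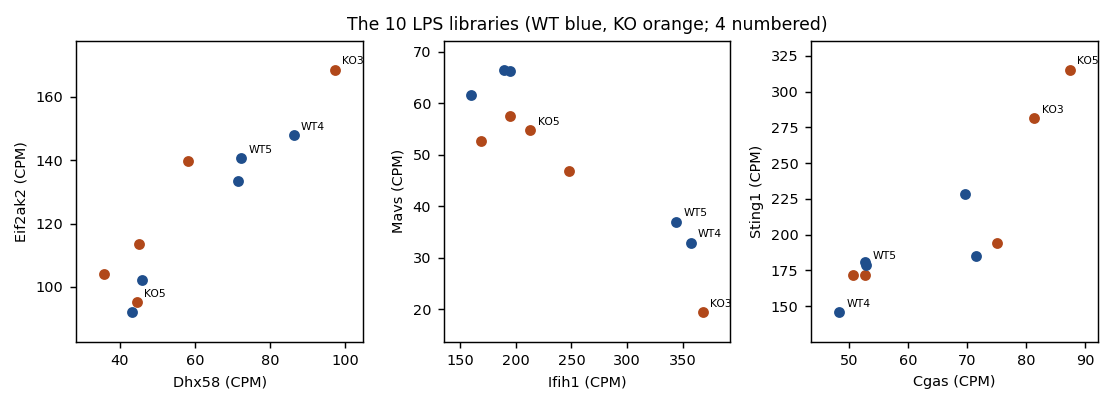
CPM of pairs of genes in the 10 LPS libraries, wildtype in blue and KO in orange, each point 1 mouse. Dhx58 and Eif2ak2 rise together, the libraries with the highest Ifih1 have the lowest Mavs, and KO 5 and KO 3 are highest in both Cgas and Sting1.

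Over all 19 libraries, each gene was also compared with 11491 genes of at least 5 CPM on average by the Pearson r of their log2 CPM deviations from the group means. These values are a description without a test, from libraries that share depth and preparation. Rigi was most like Parp9 (r = 0.909), Cd47 (0.906) and Tmem192 (0.901), and Ifih1 most like Cd47 (0.950), Snx10 (0.943) and Fndc3a (0.927). Dhx58 was most like Trafd1 (0.940), Eif2ak2 (0.939) and Gm5431 (0.924). Eif2ak2 was most like Dhx58 (0.939), Phf11d (0.935) and Samhd1 (0.919), so each of this pair was among the closest genes of the other. For Adar the closest were Tnfrsf1b (0.908), Pik3ap1 (0.894) and Syk (0.892), for Cgas Irf5 (0.940), Dhx33 (0.931) and Snx18 (0.919), and for Sting1 Kat7 (0.878), Jak3 (0.876) and Spsb1 (0.871). Mavs had the highest values of all, with Senp8 (0.974), Gorasp1 (0.973) and Tnpo2 (0.964), and Zbp1 the lowest, with Anxa2 (0.825), Zfp781a (0.778) and S100a6 (0.759). Within the family, further pairs besides Dhx58 and Eif2ak2 varied together by this measure, and others did not. For Rigi r was 0.872 with Eif2ak2, 0.865 with Ifih1 and 0.854 with Dhx58, but 0.0086 with Cgas and -0.742 with Mavs. Cgas and Sting1 had an r of 0.801, and Zbp1 and Eif2ak2 one of 0.459.

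The question of genotype was asked with the rule of the study, an unadjusted p under 0.05 and a |log2FC| of at least 0.5. After LPS, edgeR called 0 of the 9 genes between KO and wildtype mice, where it called 1.31% of all genes, and DESeq2 called 0. By the unadjusted p alone, 1 gene of the family passed in each tool, and this was Zbp1. In all, 482 genes passed in edgeR and 525 in DESeq2. With PBS, edgeR and DESeq2 each called 0 of the 9 genes, against 0.8% of all genes in edgeR, and 0 passed by the unadjusted p alone. For the interaction of genotype and LPS, edgeR called 0 genes of the family and 0% of all genes at an adjusted p under 0.05, as did DESeq2. At an unadjusted p under 0.05 the interaction found 0 of the 9 genes in either tool and 180 genes in all in edgeR and 223 in DESeq2.

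Zbp1 came closest to a difference. After LPS, KO mice had a mean of 63.0 ± 14.3 CPM (SD, n = 5) and wildtype mice 88.1 ± 18.3 CPM (SD, n = 5), and the ranges overlapped only through wildtype library 2 (57.0 CPM). The log2FC was -0.48 (95% interval -0.85 to -0.12), which passed 0.05 before adjustment, with adjusted p = 1 in edgeR. The exact permutation p was 0.0476, and 0.107 after adjustment over the 36 tests. Leaving out wildtype LPS library 2, KO LPS library 3 or KO LPS library 4 took the log2FC past 0.5 in size (-0.60, -0.51 and -0.62), and leaving out KO LPS libraries 1 and 5 took it to -0.33, which no longer passed 0.05 before adjustment in edgeR. With PBS, KO mice had 2.33 ± 0.42 CPM of Zbp1 (SD, n = 5) and wildtype mice 2.99 ± 0.63 CPM (SD, n = 4), a log2FC of -0.36 (95% interval -0.80 to 0.08) that was -0.20 without wildtype PBS library 2. The interaction of genotype and LPS for Zbp1 was -0.12 (95% interval -0.70 to 0.45), and with each library left out it ran from -0.28 (without wildtype PBS library 2) to -0.04 (without KO PBS library 5). Summed monocyte markers after LPS had a median of 404 CPM in wildtype libraries against 243 CPM in KO libraries, with overlapping ranges, and none of the 6 was called. Of the marker lists, only that of T and NK cells held a call between genotypes after LPS (1 of 2 tested lower in KO), at a summed 0.361 to 1.96 CPM in KO and 0.853 to 3.32 CPM in wildtype libraries. The part of these markers in the values of Zbp1 was not tested.

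For the other genes the intervals of the difference after LPS bound what could have been missed. They ran from -0.36 to 0.14 for Adar, from -0.31 to 0.35 for Rigi, from -0.31 to 0.34 for Eif2ak2 and from -0.52 to 0.40 for Ifih1 on the log2 scale. Dhx58 (-0.67 to 0.31), Mavs (-0.69 to 0.31), Cgas (-0.20 to 0.67) and Sting1 (-0.06 to 0.67) were less tightly bounded. The value of Dhx58 went from -0.18 to -0.48 without KO LPS library 3, which passed 0.05 before adjustment in edgeR but not the fold threshold, and to -0.05 without KO LPS library 1 or wildtype LPS library 4. Without KO LPS libraries 1 and 5 together, Rigi went from 0.02 to 0.18, Eif2ak2 from 0.01 to 0.19 and Mavs from -0.19 to -0.36, and none of these passed 0.05 before adjustment in edgeR. After LPS, Sting1 had a mean of 227 ± 67.0 CPM (SD, n = 5) in KO mice against 184 ± 29.4 CPM (SD, n = 5) in wildtype mice, a log2FC of 0.30 with an exact permutation p of 0.254. It was 0.15 without KO LPS library 5, and 0.39, 0.39 and 0.40 without KO LPS library 1, KO LPS library 4 or wildtype LPS library 3, each of which passed 0.05 before adjustment in edgeR but not the fold threshold. With PBS, the point estimates of the 9 genes lay between -0.36 for Zbp1 and 0.09 for Eif2ak2.

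**Figure D5:**
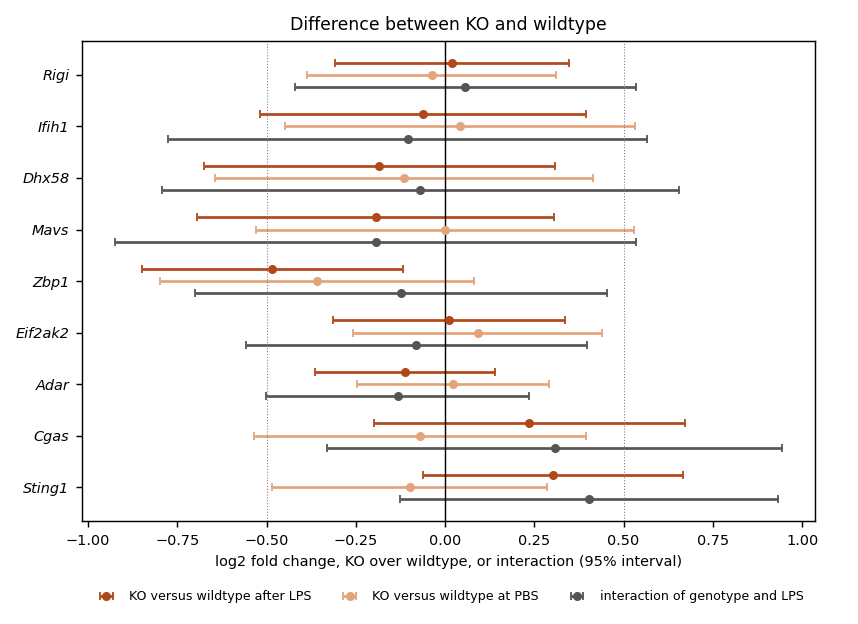
Log2 fold change of KO over wildtype after LPS and with PBS, and the interaction of genotype and LPS, for each gene from the edgeR fit with 95% intervals. Dotted lines mark a log2FC of 0.5 in either direction. Among these intervals only that of Zbp1 after LPS leaves out 0.

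The other genes of the pathway moved in both directions, and their counts stand beside 18.4% higher and 17.4% lower calls among all genes in wildtype mice and 20.1% and 19% in KO mice. Among 18 cofactors and regulators of RNA sensing, LPS gave 7 higher and 2 lower calls in wildtype mice and 6 higher and 3 lower calls in KO mice, with median changes of 0.25 and 0.33 on the log2 scale. The most abundant were the helicase Ddx3x (log2FC 0.01 in wildtype, adjusted p = 0.955 in edgeR), the small GTPase Arf1 (0.26, adjusted p = 0.132 in edgeR), the helicase Dhx9 (0.60, adjusted p = 0.00198 in edgeR) and Pcbp2, which promotes the turnover of MAVS (0.43, adjusted p = 0.00116 in edgeR, under the fold threshold). The genes called lower were Prkra, an activator of PKR (log2FC -1.24), and Rnf5, a ubiquitin ligase that acts on STING and MAVS (-0.69), and in KO mice also Rnf135, a ubiquitin ligase that activates RIG-I (-0.50). In wildtype mice Rnf135 was at -0.46 (adjusted p = 0.0139 in edgeR) and missed the fold threshold alone.

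Among 18 cofactors and nucleases of DNA sensing, 17 were tested. In wildtype mice 6 were called higher and 3 lower, and in KO mice 6 higher and 4 lower, with a median log2FC of 0.33 and 0.18. The most abundant were G3bp1, which helps cGAS to bind DNA (log2FC 1.52 in wildtype), Samhd1, which removes nucleotides (1.18), the ubiquitin ligase Trim56 (1.13) and Ifi204, a DNA-binding member of an interferon-inducible family (4.25), each called higher in both genotypes by edgeR. Ifi204 has close paralogs, so its reads are uncertain. The genes called lower were Dnase2a, which digests DNA in lysosomes (-0.61), Enpp1, which degrades the cyclic dinucleotide (-0.95), and Rnaseh2c, a subunit of the enzyme that clears RNA from DNA (-0.57), and in KO mice also Rnaseh2a of the same enzyme (-0.60). Rnaseh2a was at -0.48 in wildtype mice (adjusted p = 0.0275 in edgeR), again short of the fold threshold alone. Trex1, a nuclease that overlaps Atrip on the same strand, had 0 counts in all 19 libraries, and no test was possible. Between genotypes after LPS, Samhd1 was the 1 gene of these lists to be called by the unadjusted rule, which called 1.31% of all genes. Its mean was 190 CPM in KO against 271 CPM in wildtype libraries, a log2FC of -0.52 with adjusted p = 1 in edgeR. Its rise after LPS was 1.18 in wildtype and 0.66 in KO mice, an interaction of -0.52 that passed 0.05 before adjustment, with adjusted p = 1 in edgeR.

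Of 14 kinases, adaptors and transcription factors shared by both routes, 6 were called higher and 1 lower in wildtype and 7 higher and 1 lower in KO mice. Irf7, the interferon-inducible factor of the late interferon wave, went from 11.3 ± 2.37 CPM (SD, n = 4) to 303 ± 65.4 CPM (SD, n = 5) in wildtype mice, a log2FC of 4.74, and from 8.96 ± 1.33 CPM (SD, n = 5) to 218 ± 39.7 CPM (SD, n = 5) in KO mice, a log2FC of 4.61. Traf3 rose by 1.14 in wildtype and 1.20 in KO mice, while Tbk1 (0.33, adjusted p = 0.132 in edgeR) and the abundant Irf5 (-0.45, adjusted p = 0.0288 in edgeR, under the fold threshold) were not called. Traf5 was the 1 gene called lower (-0.60). Between genotypes after LPS, Irf7 (KO over wildtype -0.47) and Traf3 (0.29) passed 0.05 before adjustment but not the fold threshold, with adjusted p = 1 in edgeR for both.

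Of 14 partners of ZBP1 and PKR, 5 were called higher and 2 lower in wildtype and 7 higher and 1 lower in KO mice. Ppp1r15b, a phosphatase subunit that reverses the action of PKR, and Atf4, the transcription factor downstream of eIF2α, each rose by 1.35 in wildtype mice. The inhibitor Dnajc3 (-0.15, adjusted p = 0.229 in edgeR) was not called, and Ppp1r15a was called in KO mice only (1.14, against 0.68 in wildtype), a difference whose interaction was not called. Casp8 (-0.56), a protease that restrains necroptosis, was called lower in wildtype mice, and in KO mice its -0.47 (adjusted p = 0.00298 in edgeR) missed the fold threshold alone. Eif2ak3, the related kinase of the endoplasmic reticulum, was called lower in both genotypes (-0.55 and -0.84). Ripk3 and Mlkl, which carry out necroptosis and were chosen here after their values were seen, rose by 1.95 and 3.63 in wildtype and by 1.99 and 2.89 in KO mice. The interaction of genotype and LPS was -0.74 for Mlkl, which passed 0.05 before adjustment, with adjusted p = 1 in edgeR. Among 5 other adenosine deaminases that act on RNA, 4 were tested and 1, Adat2, was called higher (0.69 in wildtype), while Adarb1 (0.29), Adat1 (0.17) and Adarb2 (-0.25) were not.

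The ligands at the end of the pathway were at or near the detection limit at 6 h. None of 10 type I interferon genes passed the count filter. Ifnb1 had 0 counts in all 9 PBS libraries and at most 14 counts in any LPS library, at 0.387 ± 0.472 CPM (SD, n = 5) in wildtype and 0.365 ± 0.387 CPM (SD, n = 5) in KO mice, close to the 3-count limit. By contrast, all 14 genes of a reference list of interferon-induced genes were called higher after LPS in both genotypes, the median change being 3.77 in wildtype and 3.60 in KO mice on the log2 scale. Its most abundant genes were the chemokine Cxcl10 (6.84 in wildtype), the antiviral enzyme Rsad2 (5.71) and the transcription factors Stat2 (2.40) and Irf9 (1.45). Of the 9 sensor genes only Zbp1 exceeded the median of this list. Between genotypes after LPS, 13 of the 14 had a negative log2FC (KO below wildtype), with a median of -0.22 against 0.02 over all genes. By edgeR and the fold threshold none was called. Of the 14, 2 had an unadjusted p under 0.05 in edgeR, as had 482 of all 18739 genes. With PBS 11 of the 14 were negative too, with a median of -0.08. The monocyte markers had a median log2FC of -0.46 between the same genotypes after LPS, and their part in these values was not tested.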

How the data were processed

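The authors trimmed the reads of stranded, ribosome-depleted total RNA libraries with cutadapt 0.17.4 (version per the submitters' processing notes) and aligned and counted them with STAR 2.7.9a on GRCm39. The deposited values are raw counts per Ensembl gene for 19 mice, with no normalization. The 9 genes, the lists around them and the tests were chosen with earlier results of these data known. The counts entered edgeR 4.0.16 under R 4.3.3. The filter filterByExpr (minimum count 10, minimum total 15) kept 18739 genes, and TMM and 1 quasi-likelihood fit over 4 groups followed. SEs are |log2FC| divided by the square root of F, and p-values were adjusted by Benjamini-Hochberg over all tested genes. Log2 CPM for the exact tests used a prior count of 2. LPS comparisons used an adjusted p under 0.05 and |log2FC| of at least 0.5, and genotype comparisons the same fold with the unadjusted p, after the study's rules. Correlations used 100000 permutations in Python 3.11.15, and the split of genes into those with and without separate ranges was made after the data were seen. Names, places and exon lengths came from GENCODE M39, which named 56236 of 56980 genes. From each list around the 9 genes, the 4 of highest mean CPM and any called against most of the list are named. The fit was tested on simulated counts. Alternatives were DESeq2 1.42.0, its size factors in edgeR, other filters, only the compared groups, a replicate block, mitochondrial and ribosomal RNA genes left out, the adjusted p for genotype, a prior count of 0.5 and each library left out. Libraries of a group differed beyond sampling noise (chi-square per degree of freedom of at least 6.50). Each library is a separate mouse, as far as the labels say. All p-values measure the spread between these mice.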

Additional observations from a re-analysis of the deposited data

Results flagged for a closer look

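One group of values stood apart. Among KO mice given LPS, Mavs in library 3 was 19.4 CPM while the other 4 libraries ran from 46.8 to 57.4 CPM, and the gap to the nearest of them was 0.721 of the whole range of the group. This is past Dixon's limit for 5 samples. The limit flags about 1 in 20 groups by chance, and 36 groups (9 genes in 4 groups) were examined. The same library had the highest Ifih1, Rigi, Dhx58 and Eif2ak2 of the LPS libraries.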

How the results depend on the processing

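The number of genes of the family called was 8 after LPS in wildtype and 7 in KO mice, and 0 for each genotype comparison and the interaction, under every setting tried other than leaving out a single library. Of these settings 2 were chosen after seeing the data (without KO LPS libraries 1 and 5, and with the summed markers of other brain cells in the model). Leaving out each library in turn kept these counts, except that KO against wildtype after LPS ranged from 0 to 1, where Zbp1 ranged from -0.62 to -0.41. The labels do not say that a replicate number marks a shared litter or day. The deviations of same-numbered mice from their group means correlated with r from -0.04 to 0.58 between LPS and PBS in wildtype mice (over 0.1 in 3 of 4 pairs, best with their own number in 2) and from 0.03 to 0.54 in KO mice (4 of 5 pairs, best in 3). Between genotypes r ran from -0.57 to 0.30 after LPS (1 of 5 pairs) and from -0.29 to 0.30 with PBS (2 of 4 pairs). As no comparison had every pair over 0.1, the numbers were not taken as pairs, and a fit with the replicate block gave 8, 7, 0, 0 and 0 calls.

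Values near 0 changed sign without reaching the threshold. For KO against wildtype with PBS, Adar was -0.00403 with no filter and -0.0061 with at least 10 counts in every library, and Mavs -0.0255 and -0.028 under these filters and -0.0171 with DESeq2's size factors or DESeq2. Without KO LPS libraries 1 and 5, KO against wildtype after LPS was 0.12 for Ifih1 and 0.068 for Dhx58, and the interaction 0.077 for Ifih1, 0.18 for Dhx58, 0.026 for Zbp1 and 0.10 for Eif2ak2, while that of Rigi grew from 0.06 to 0.22 and that of Mavs from -0.19 to -0.36 without a change of sign. With each library left out, Mavs after LPS in wildtype mice ranged from -0.14 to 0.086. KO against wildtype with PBS ranged from -0.12 to 0.0092 for Rigi, -0.021 to 0.081 for Ifih1, -0.22 to 0.0082 for Dhx58, -0.21 to 0.16 for Cgas, -0.036 to 0.066 for Adar and -0.052 to 0.073 for Mavs. After LPS it ranged from -0.13 to 0.098 for Rigi, -0.27 to 0.10 for Ifih1, -0.12 to 0.092 for Eif2ak2 and -0.32 to 0.0018 for Mavs. The interaction ranged from -0.094 to 0.15 for Rigi, -0.31 to 0.062 for Ifih1, -0.36 to 0.065 for Dhx58, -0.21 to 0.0015 for Eif2ak2 and -0.32 to 0.0018 for Mavs. Of the 10 interferon ligands, 7 had 0 counts in all 19 libraries, so at these depths only levels under the 3-count limit can be stated for them.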
